A study of Mus musculus with 10 samples.

Results

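The 9 genes described here make, store, take back or break down monoamines: Th, Ddc, Dbh and Tph1 encode synthetic enzymes, Slc18a1 and Slc18a2 vesicular transporters, Slc6a2 a plasma membrane transporter, and Maoa and Maob the monoamine oxidases. They were taken by symbol from the array's annotation, 9 of 19938 named genes, and each had 1 probe set. Prostate RNA of 10 male TRAMP mice was hybridised, each to its own whole-transcript array. In TRAMP mice a probasin promoter drives a viral T antigen in the prostate epithelium, where tumours develop, and both groups carry the transgene. From 8 to 9 weeks of age, 5 mice were given plain tap water and 5 were given nicotine, as the tartrate salt, dissolved in it at 250 µg/ml. The sources used here do not give the strain, the age at dissection or the part of the prostate taken. Separate numbers in the labels were read as separate mice; nothing in them gives litters or batches.

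Catecholamines are made from tyrosine. Tyrosine hydroxylase (Th) gives L-DOPA, aromatic amino acid decarboxylase (Ddc) gives dopamine, and dopamine beta-hydroxylase (Dbh) gives noradrenaline. Serotonin is made from tryptophan by tryptophan hydroxylase (Tph1 outside the brain) followed by the same decarboxylase. The vesicular transporters load the amines into granules or synaptic vesicles, Slc6a2 returns noradrenaline to the nerve ending, and the oxidases on the outer mitochondrial membrane degrade what is left free. The prostate receives noradrenergic nerves from pelvic ganglia, and its epithelium holds scattered neuroendocrine cells, of which serotonin is a known product.

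Values are log2 expression as deposited, so a difference of 1 is a doubling, and levels of different genes are not compared because probes differ in response. Array medians ran from 7.50 to 7.57. The table gives no detection call, so a low value cannot be separated from background. Among the arrays, 2 departed from the rest in tissue markers, nicotine 1 and nicotine 3. The neuroendocrine list had a mean of 9.67 and 10.03 there, respectively, and of 6.95 to 7.58 in the other 8 mice. The prostate luminal list had one of 10.9 and 7.62, against 11.5 to 11.7. Of its 9 genes, 4 were more than 1 log2 unit below the water mean in nicotine 1, and 7 in nicotine 3. Of its keratin genes, Krt8 was at 13.1 in nicotine 1 and 7.98 in nicotine 3, against 12.4 to 12.7 in the other 8. Krt18 was at 12.4 in nicotine 1 and 6.94 in nicotine 3, against 12.5 to 12.7. In nicotine 1, Krt8 was thus above the other 8 mice and Krt18 slightly below them. Pbsn, the mouse's own probasin gene, was at 9.17 in nicotine 1 and 5.08 in nicotine 3, against 10.9 to 12.2 elsewhere. The defining luminal gene of the labelled tissue was thus very low in nicotine 3. Skeletal muscle markers averaged 10.3 in nicotine 1 and 7.40 to 7.76 in the others. The mean of the proliferation list was 11.5 for nicotine 3 and 10.6 for nicotine 1, with the other 8 mice at 9.41 to 9.89. Seminal vesicle markers split the mice another way: they averaged 12.1 to 13.2 in water 3, 4 and 5 and 12.5 in nicotine 5, and 5.92 to 8.54 in the other 6 mice. In whole tissue, fewer cells of a type and less RNA per cell cannot be told apart.

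Most of the spread in the monoamine genes lay in these 2 prostates. Ddc was far above the water mice in nicotine 1 and nicotine 3, Tph1 in nicotine 1 alone. Slc18a1 was far below them in nicotine 3 and Maob in both, while Maoa was above them in nicotine 3. These 5 genes spanned more than 1 log2 unit over the 10 mice, as 34.7% of tested genes did, whereas Th, Dbh, Slc6a2 and Slc18a2 spanned less. Of these 4, Slc6a2 was also below every water mouse in both prostates, while Th, Dbh and Slc18a2 lay inside the water range there. Over the 8 mice without nicotine 1 and 3, none of the 9 genes spanned more than 1 log2 unit, as 1.88% of tested genes did. None of the 9 genes passed the test of nicotine against water.

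**Figure D1:**
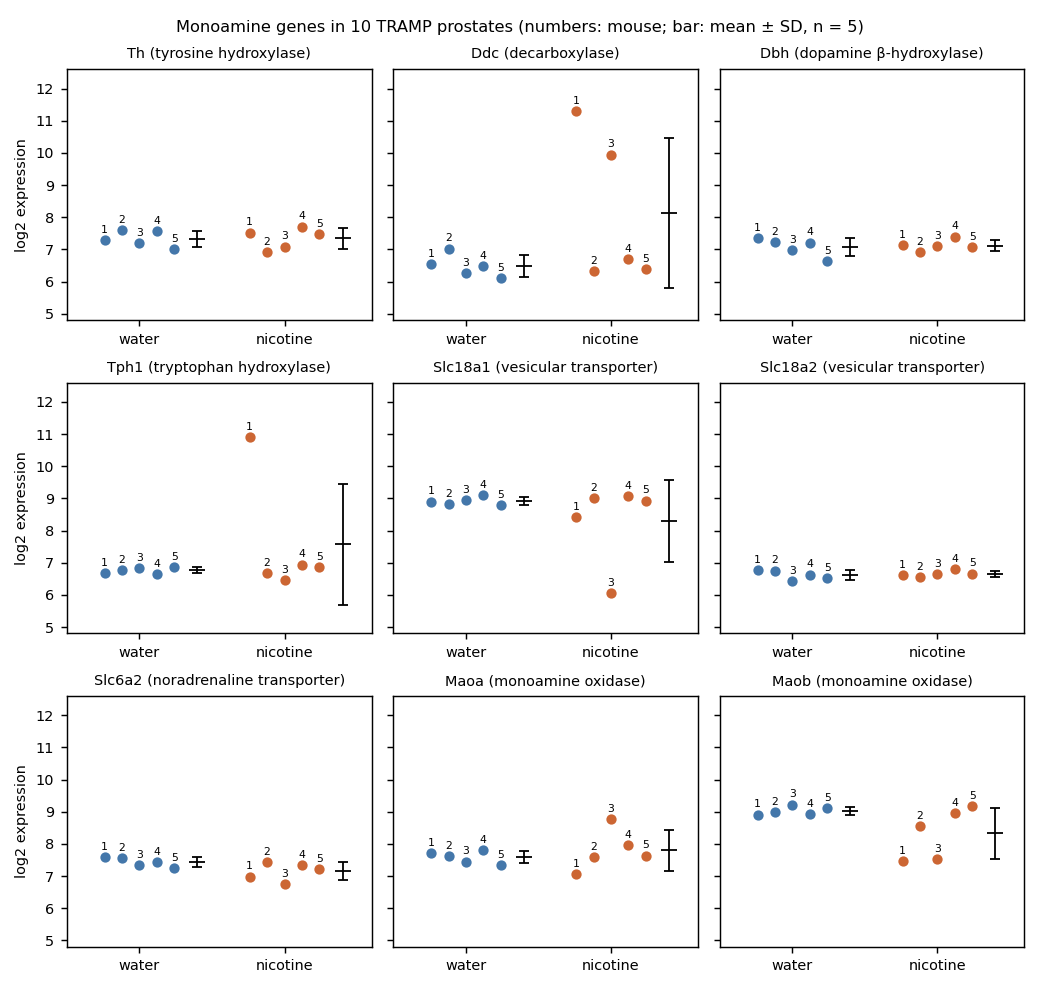
Log2 expression (vertical axis) of each monoamine gene in the 5 water (blue) and 5 nicotine (orange) mice, 1 numbered point per mouse, with the group mean and SD as a black bar to the right of its points. Ddc reached 11.3 in nicotine 1 and 9.95 in nicotine 3 and Tph1 reached 10.9 in nicotine 1, while Th, Dbh and Slc18a2 stayed within 1 log2 unit.

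Ddc, the decarboxylase shared by the catecholamine and serotonin routes, had the widest range of the 9 genes, 5.19 log2 units. It was at 6.54, 7.02, 6.26, 6.49 and 6.12 in water mice 1 to 5, and at 11.3, 6.33, 9.95, 6.69 and 6.38 in nicotine mice 1 to 5. Nicotine 1 and nicotine 3 thus lay above every water mouse, and the other 3 nicotine mice lay within the water range. Against the water mean, Ddc was 28.4-fold higher in nicotine 1 and 11.0-fold higher in nicotine 3. A value more than 4 log2 units above the water mean was reached by 0.127% of the 14953 tested genes in nicotine 1, Ddc and Tph1 among them. Ddc entered the test only through these 2 prostates, since its mean over the other 8 was 6.48, under the level of 6.55 below which the lowest 25% of genes were left out.

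Tph1, the enzyme that commits tryptophan to serotonin, was high in a single prostate. It was at 6.68, 6.78, 6.84, 6.65 and 6.87 in water mice 1 to 5 and at 10.9, 6.68, 6.45, 6.94 and 6.87 in nicotine mice 1 to 5. Nicotine 1 was 17.8-fold above the water mean, while nicotine 3 was below every water mouse. Of the 14 neuroendocrine markers, 10 were higher in nicotine 3 than in nicotine 1 and 4 were lower. The 2 prostates therefore differed in which synthetic enzymes were high: Ddc with Tph1 in nicotine 1, and Ddc without Tph1 in nicotine 3. Among the 4 only the prohormone convertase gene Pcsk1 showed the same split, at 11.1 in nicotine 1 and 6.20 in nicotine 3 against 6.07 to 6.82 in the other 8 mice. The rest of the 4, Chga, Cplx2 and Sez6, were high in nicotine 3 too, at 11.3, 8.01 and 8.61. Their highest values in the other 8 mice were 7.73, 7.28 and 7.49. Pcsk1 was singled out after its values were seen.

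Th and Dbh, the enzymes that with Ddc complete the route to noradrenaline, did not follow Ddc. Th was at 7.29, 7.61, 7.20, 7.56 and 7.01 in water mice 1 to 5 and at 7.52, 6.92, 7.08, 7.71 and 7.47 in nicotine mice 1 to 5. Dbh was at 7.36, 7.22, 6.98, 7.21 and 6.64 in the water mice and at 7.14, 6.91, 7.09, 7.40 and 7.06 in the nicotine mice, in the same order of numbers. Nicotine 1 and nicotine 3 lay inside the water range for Dbh and for Th. For both genes the highest value of the nicotine group was in nicotine 4, the lowest in nicotine 2, and the lowest of the water group in water 5. Npy, a peptide of sympathetic neurons, was also lowest among the water mice in water 5, at 8.31 against 8.77 to 9.82 in the other 4. The nerve markers as a list averaged 7.03 in water 5 and 7.27 to 7.86 in the other water mice. The same list was at 9.76 in nicotine 3 and 8.36 in nicotine 1, the 2 prostates with Th and Dbh inside their water ranges, and at 7.03 to 7.89 in the other 8 mice. Of its 10 genes, 7 were more than 1 log2 unit above the water mean in nicotine 3 but only 3 in nicotine 1. The list also shares a gene with the neuroendocrine list. Npy, by contrast, was at 9.10 in nicotine 1 and 7.99 in nicotine 3, the lowest of the 10. The Schwann cell list, of cells that sheathe nerves, averaged 7.16 in nicotine 1 and 6.82 in nicotine 3, against 7.00 to 7.24 in the other 8 mice. The part of nerve in the spread of Th and Dbh was not tested.

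The promoters of Ddc, Tph1 and Th are shown because these enzymes serve linked steps and yet separated between the prostates. RefSeq gives 2 start sites each for Ddc and Tph1, and with 1 probe set per gene the array does not tell which of them was used. Each sequence is the 250 bases before a start, in GRCm38.p6, read in the direction of transcription; capitals mark matches to the motifs searched on both strands. These were the E-boxes CAGCTG and CAGATG, the cyclic AMP response element TGACGTCA, the TATA box TATAAA and the GC box GGGCGG. They occur in 13.0%, 14.4%, 1.55%, 12.4% and 32.7% of all 32851 windows of this length, and no matches below overlap.
Ddc, upstream start, chr11:11898145-11898394, minus strand: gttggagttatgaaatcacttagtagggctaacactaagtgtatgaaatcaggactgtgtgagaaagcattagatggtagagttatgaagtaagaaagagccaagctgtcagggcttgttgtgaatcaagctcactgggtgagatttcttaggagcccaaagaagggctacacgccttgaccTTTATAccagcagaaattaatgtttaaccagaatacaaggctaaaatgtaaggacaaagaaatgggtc
Ddc, downstream start, chr11:11890409-11890658, minus strand: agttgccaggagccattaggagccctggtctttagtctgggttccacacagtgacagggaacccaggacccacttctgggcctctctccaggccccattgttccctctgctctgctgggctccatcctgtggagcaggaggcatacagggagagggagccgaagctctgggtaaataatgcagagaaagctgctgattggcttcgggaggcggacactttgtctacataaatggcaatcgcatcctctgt
Tph1, upstream start, chr7:46672538-46672787, minus strand: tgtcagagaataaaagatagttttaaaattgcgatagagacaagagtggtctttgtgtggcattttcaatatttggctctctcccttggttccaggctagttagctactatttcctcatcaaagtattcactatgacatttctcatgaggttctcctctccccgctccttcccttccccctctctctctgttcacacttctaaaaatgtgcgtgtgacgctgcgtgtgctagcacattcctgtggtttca
Tph1, downstream start, chr7:46667378-46667627, minus strand: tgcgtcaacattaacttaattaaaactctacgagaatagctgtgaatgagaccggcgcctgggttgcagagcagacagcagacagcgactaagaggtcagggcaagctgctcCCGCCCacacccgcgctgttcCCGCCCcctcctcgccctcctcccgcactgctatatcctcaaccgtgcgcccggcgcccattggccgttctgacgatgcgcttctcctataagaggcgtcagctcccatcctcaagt
Th, chr7:142899996-142900245, minus strand: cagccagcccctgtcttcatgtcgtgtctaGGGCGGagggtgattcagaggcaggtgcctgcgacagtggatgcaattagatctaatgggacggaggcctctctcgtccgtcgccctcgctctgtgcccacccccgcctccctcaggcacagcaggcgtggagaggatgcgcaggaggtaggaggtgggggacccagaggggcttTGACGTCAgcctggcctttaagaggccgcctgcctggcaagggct

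The upstream window of Ddc held 1 match, to the TATA box in reverse, 68 bases before the start, and the downstream window held none of the 5 motifs. The upstream window of Tph1 held none and the downstream window 2 GC boxes in reverse, 138 and 117 bases before the start. Th held a GC box and, 45 bases before the start, the cyclic AMP response element. GC content was 40.8% and 56.0% in the Ddc windows, 43.6% and 58.8% in those of Tph1 and 64.4% in Th, against a median of 52.4% over all windows. No E-box of either kind was found in these 5 windows. These matches describe letters in the reference and say nothing about binding in these prostates.

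Of the vesicular transporters, Slc18a1 is the form typical of endocrine cells and Slc18a2 the form typical of neurons, mast cells and platelets. Slc18a1 was at 8.90, 8.82, 8.94, 9.11 and 8.79 in water mice 1 to 5 and at 8.42, 9.00, 6.06, 9.08 and 8.93 in nicotine mice 1 to 5. Both prostates with high neuroendocrine markers were below every water mouse: nicotine 3 was 7.24-fold and nicotine 1 was 1.41-fold below the water mean. In nicotine 3, 5.80% of tested genes lay more than 2 log2 units below the water mean. Slc18a1 was thus low where the neuroendocrine list was high. It departed in the same direction as the prostate luminal list, whose mean was 7.62 in nicotine 3 and 10.9 in nicotine 1. That direction was not particular to the luminal list. The smooth muscle list, at 8.09 and 10.3, and the macrophage list, at 7.30 and 7.64, were also below the other 8 mice in these prostates. The part of any of these cells in the Slc18a1 difference was not tested.

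Slc18a2 was at 6.78, 6.76, 6.43, 6.63 and 6.53 in water mice 1 to 5 and at 6.62, 6.56, 6.65, 6.81 and 6.66 in nicotine mice 1 to 5. It had the narrowest range of the 9 genes, 0.379 log2 units, and its mean of 6.64 lay just above the level of 6.55 needed to be tested. Neither vesicular transporter was high where Ddc was high.

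Slc6a2, which takes noradrenaline back into the nerve ending, was at 7.59, 7.57, 7.34, 7.43 and 7.24 in water mice 1 to 5 and at 6.98, 7.42, 6.75, 7.35 and 7.22 in nicotine mice 1 to 5. The 3 lowest of the 10 values were those of nicotine 3, 1 and 5, and nicotine 2 and 4 lay within the water range.

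**Figure D2:**
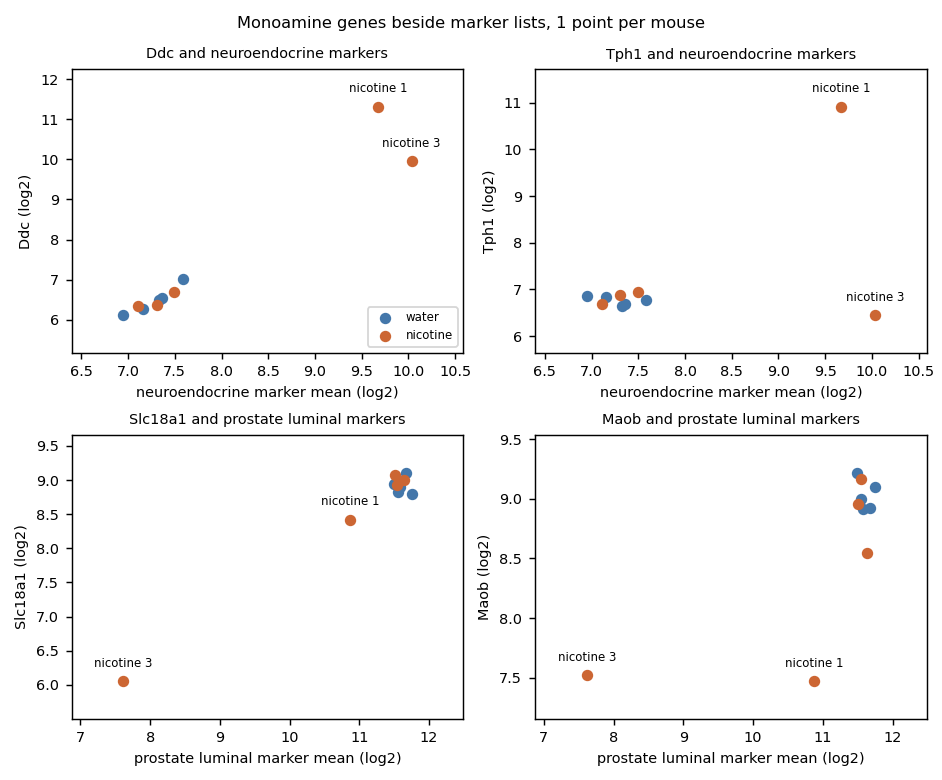
Log2 expression of Ddc and Tph1 against the mean of 14 neuroendocrine markers, and of Slc18a1 and Maob against the mean of 9 prostate luminal markers, 1 point per mouse (water blue, nicotine orange). Ddc was high in both prostates with a neuroendocrine mean above 9, Tph1 in nicotine 1 alone, Slc18a1 was lowest in nicotine 3, at 6.06, and Maob was at 7.47 and 7.52 in nicotine 1 and 3.

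The monoamine oxidase genes lie next to each other on the X chromosome, and their products differ in preferred substrate, with serotonin and noradrenaline favoured by the A form. Maob was at 8.91, 9.00, 9.22, 8.92 and 9.10 in water mice 1 to 5 and at 7.47, 8.54, 7.52, 8.95 and 9.17 in nicotine mice 1 to 5. It was 2.94-fold below the water mean in nicotine 1 and 2.84-fold below it in nicotine 3, and nicotine 2 was also below every water mouse. Maoa was at 7.70, 7.62, 7.45, 7.82 and 7.35 in the water mice and at 7.06, 7.58, 8.78, 7.96 and 7.64 in the nicotine mice. For Maoa, nicotine 4 was also above every water mouse, at 7.96 against 7.82 in the highest. The neighbours thus parted most in nicotine 3, where Maoa was 2.29-fold above its water mean and Maob below its own. In nicotine 1 both were below every water mouse. The mean of the smooth muscle list was 8.09 for nicotine 3 and 10.3 for nicotine 1, with the other 8 mice at 10.7 to 11.1. The mean of the luminal list was low in the same 2 prostates, though in nicotine 1 not every luminal marker was low. The part of these cells in the oxidase values was not tested.

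Counted by a distance of more than 1 log2 unit from the water mean, nicotine 1 had 2 of 9 monoamine genes above (Ddc, Tph1) and 1 below (Maob), where 5.54% and 4.60% of all tested genes were that far above and below. Nicotine 3 had 2 above (Ddc, Maoa) and 2 below (Maob, Slc18a1), against 10.7% and 14.3%. Ddc was above in both prostates, as were 3.64% of tested genes, and Maob below in both, as were 4.01%. In nicotine 2, 4 and 5, none of the 9 genes was that far from the water mean in either direction, and 0.508% of tested genes were in at least 1 of these mice. Ddc was among the tested genes only through its values in nicotine 1 and 3, which are the values counted here. With 9 genes, these counts describe the list and are not a test of it.

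The genes closest in pattern to each wide-ranging monoamine gene were found among all tested genes by the root mean square difference over the 10 mice, after centring each gene on its own mean. For Ddc they were Fgf14 (0.190 log2 units), a regulator of neuronal sodium channels, the granule protein gene Chga (0.231) and the adenylate cyclase gene Adcy1 (0.275), where Ddc itself departed from its mean by 1.70. Fgf14 was at 10.9 in nicotine 1 and 9.85 in nicotine 3, against 6.40 to 6.97 in the other 8. For Tph1 they were the gene of the brush border protein villin, Vil1 (0.142), and the skeletal muscle genes Myh1 (0.153) and Klhl41 (0.174). Each of these 3 was above 10 in nicotine 1 only, at 10.4, 10.5 and 10.8, so the genes nearest to Tph1 were of more than one tissue and shared with it the single high prostate. Skeletal muscle markers averaged 10.3 in that prostate, and their part in the Tph1 value was not tested. As for Ddc itself, the means of Fgf14, Vil1 and Myh1 over the other 8 mice were under the level needed to be tested. These genes were searched only because of their high values in nicotine 1 or nicotine 3. The filter thus partly set which genes could be found near Ddc and Tph1.

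The nearest genes to Slc18a1 were Large2 (0.0841 log2 units), a glycosyltransferase gene, the lipid droplet gene Plin3 (0.0858) and Agtrap (0.103), all lowest in nicotine 3 at 7.32, 7.51 and 7.04. For Maob they were Rnft1 (0.136), the angiopoietin gene Angpt1 (0.147) and Tlcd1 (0.157). Like Maob they were low in nicotine 1 and nicotine 3 together, for Angpt1 at 6.14 and 6.28 against 7.14 to 7.75 in the other 8. For Maoa they were the cadherin gene Cdh8 (0.127), St7 (0.131) and Mettl15 (0.144), each highest in nicotine 3 and lowest in nicotine 1. Large shares of all genes depart in these 2 prostates, so a close pattern over 10 mice rests mainly on 2 of them.

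**Figure D3:**
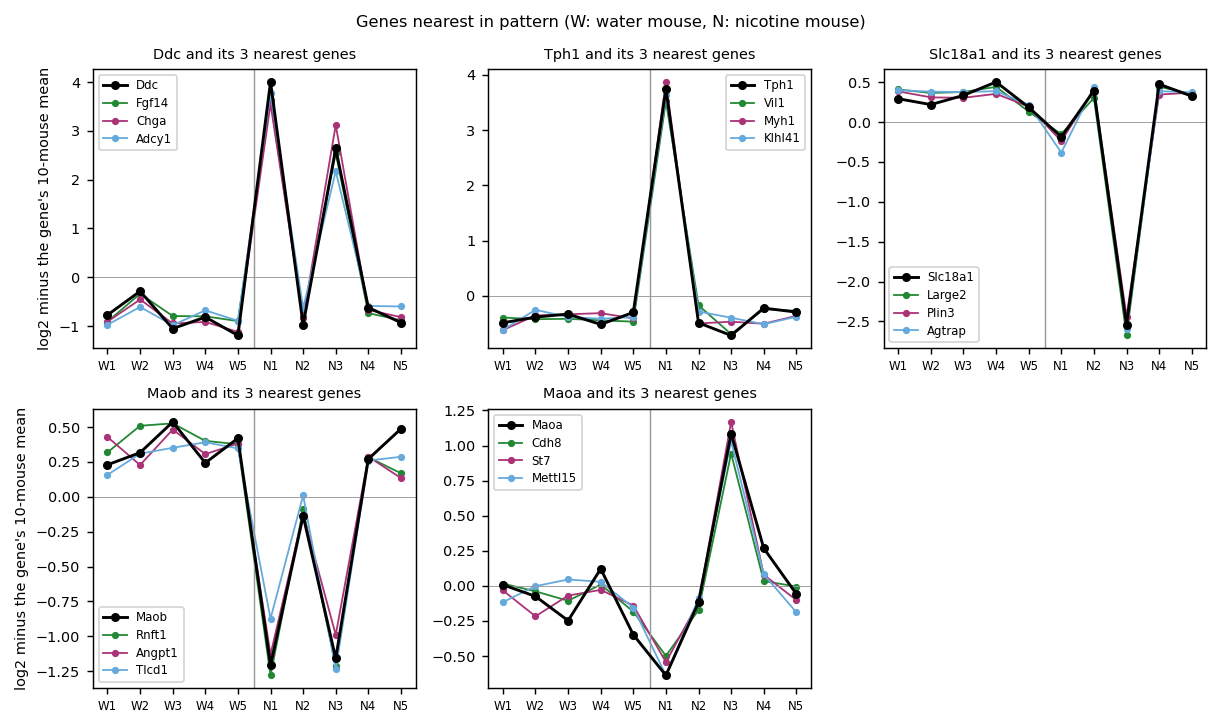
Log2 expression minus each gene's own 10-mouse mean (vertical axis) in the 10 mice (horizontal axis) for 5 monoamine genes (black) and the 3 genes closest to each in pattern (colours). Ddc and its 3 neighbours peak in nicotine 1 and 3, Tph1 and its neighbours in nicotine 1, and Slc18a1 and its neighbours dip in nicotine 3.

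Nicotine was then set against water with limma, fitted over 14953 genes, with Benjamini-Hochberg adjustment over all of them. All 9 monoamine genes were among the genes tested. None passed at an adjusted p of 0.05, as 0 of 14953 genes did (0%), and none had an unadjusted p under 0.05, where 10.1% of tested genes did. The exact permutation test also gave none of the 9 an unadjusted p under 0.05 (16.3% of tested genes). In no monoamine gene were the groups apart, against 4.90% of tested genes. The median log2 difference, nicotine minus water, was 0.04 over the 9 genes, with 6 positive, and 0.00 over all tested genes, with 50.7% positive.

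Maob had a mean of 9.03 ± 0.13 (SD, n = 5) in water mice and 8.33 ± 0.79 (SD, n = 5) in nicotine mice, a log2 difference of -0.70 ± 0.33 (SE) with p = 0.458 after adjustment by limma and p = 0.103 by the two-sided exact permutation test. Slc6a2 was at 7.43 ± 0.15 and 7.14 ± 0.28 (SD, n = 5 each), a difference of -0.29 ± 0.14 (SE) with p = 0.458 after adjustment by limma and p = 0.0635 by the exact test. The Ddc means were 6.48 ± 0.35 and 8.13 ± 2.33 (SD, n = 5 each), and its difference of 1.65 ± 0.96 (SE) had a limma adjusted p of 0.458. Tph1 differed by 0.81 ± 0.76 (SE), Slc18a1 by -0.62 ± 0.52 and Maoa by 0.22 ± 0.27. The 95% interval for Ddc ran from -0.49 to 3.79.

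Th, Dbh and Slc18a2 had the smallest differences, of 0.01 ± 0.17, 0.04 ± 0.14 and 0.04 ± 0.08 (SE). Their 95% intervals were -0.38 to 0.39, -0.28 to 0.36 and -0.15 to 0.22 log2 units.

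In a fit without nicotine 1 and 3, 3 nicotine mice against 5 water mice, the difference was -0.02 ± 0.18 (SE) for Ddc, 0.07 ± 0.08 for Tph1, 0.09 ± 0.08 for Slc18a1 and -0.14 ± 0.13 for Maob. Maoa differed there by 0.14 ± 0.12 and Slc6a2 by -0.10 ± 0.09. None of the 9 genes had an unadjusted p under 0.05, against 14.7% of tested genes. The sign turned for Ddc and Slc18a1, and the size of every difference above 0.2 in the 10 mice was reduced to 0.14 or less.

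**Figure D4:**
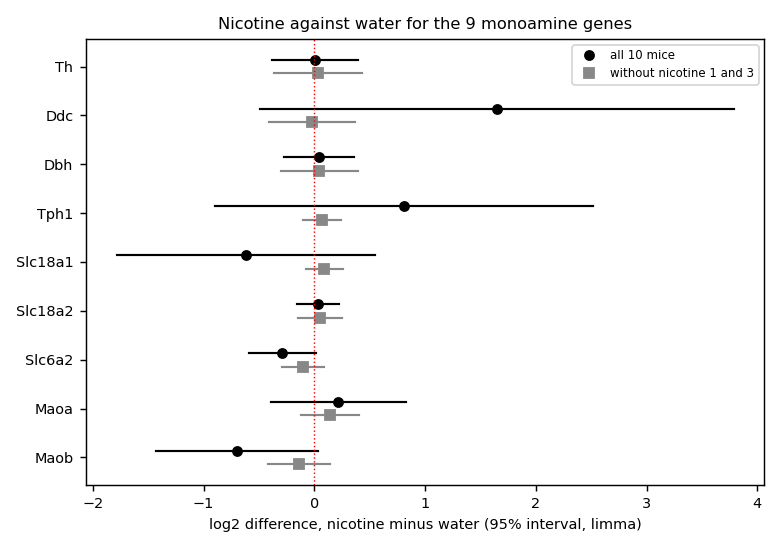
Log2 difference, nicotine minus water (horizontal axis), with 95% intervals from limma for the 9 monoamine genes, in all 10 mice (black circles) and without nicotine mice 1 and 3 (grey squares). All intervals include 0; that of Ddc narrows from -0.49 to 3.79 in the 10 mice to -0.41 to 0.37 in the 8.

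The rest of the pathway was followed through 5 further lists with 39 genes, of which 30 were named on the array and 24 were tested. No gene passed the limma test over all genes, higher or lower. Of the 24, 1 had an unadjusted limma p under 0.05, where 10.1% of all tested genes did. That gene, from a list of transcription factors with 5 of 7 genes tested and 3 differences positive, was Phox2a, a transcription factor of noradrenergic neurons, with a difference of 0.31 ± 0.13 (SE) and a limma adjusted p of 0.458. It was at 7.00 in nicotine 1 and 7.34 in nicotine 3, and at 6.41 to 6.83 in the other 8 mice. The median difference over the 24 was -0.06, with 9 positive.

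Of the other transport genes 3 of 6 were tested, 2 with a positive difference, and of the other synthesis genes 3 of 7, also 2 positive. Slc29a4, the low-affinity plasma membrane monoamine transporter, was at 8.24 in nicotine 1 and 9.62 in nicotine 3, against 6.82 to 7.12 in the other 8 mice, with a difference of 0.76 ± 0.50 (SE) that did not pass. It was high in the same prostates as Ddc but in the reverse order, with nicotine 3 the higher. The plasma membrane transporters of dopamine, Slc6a3, and of serotonin, Slc6a4, ranged from 6.93 to 7.31 and from 6.95 to 7.18 over the 10 mice, and the brain form Tph2 from 5.26 to 5.57. These 3 were named after their values were seen. Moxd1, a relative of Dbh, had a difference of -0.23 ± 0.13 (SE).

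Of the tetrahydrobiopterin genes, which supply the cofactor that Th and Tph1 need, 6 of 8 were tested, 2 with a positive and 4 with a negative difference. Pts, the second enzyme of that route, was lower in every nicotine mouse than in every water mouse (2.88% of tested genes were): it was at 8.85, 8.72, 8.81, 8.77 and 8.92 in water mice 1 to 5 and at 8.49, 8.65, 7.68, 8.66 and 8.68 in nicotine mice 1 to 5. Its difference was -0.38 ± 0.18 (SE), with a limma adjusted p of 0.458, and it was -0.15 without nicotine 1 and 3. Pcbd1, which recycles the cofactor, differed by 0.14 ± 0.07 (SE).

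All 7 tested genes of other breakdown routes had a negative difference and none passed. Sult1a1, a sulfotransferase, differed by -0.21 ± 0.10 (SE), and the methyltransferase gene Inmt by -1.61 ± 1.00. Inmt was at 10.7 in nicotine 1 and 6.04 in nicotine 3, against 11.1 to 12.1 in the other 8 mice. Aldh2 and Aldh1a1, aldehyde dehydrogenases that act after the oxidases and were named after their values were seen, were at 9.75 and 9.68 in nicotine 1 and at 7.39 and 6.44 in nicotine 3, with 10.6 as the lowest value of either in the other 8. Without nicotine 1 and 3 the median difference of the 7 genes was -0.01. Gata3, a transcription factor of sympathetic neurons that luminal epithelium also expresses, was at 10.5 and 7.48 in nicotine 1 and 3 and at 11.3 to 11.6 in the other 8, with a difference of -1.04 ± 0.69 (SE).

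**Figure D5:**
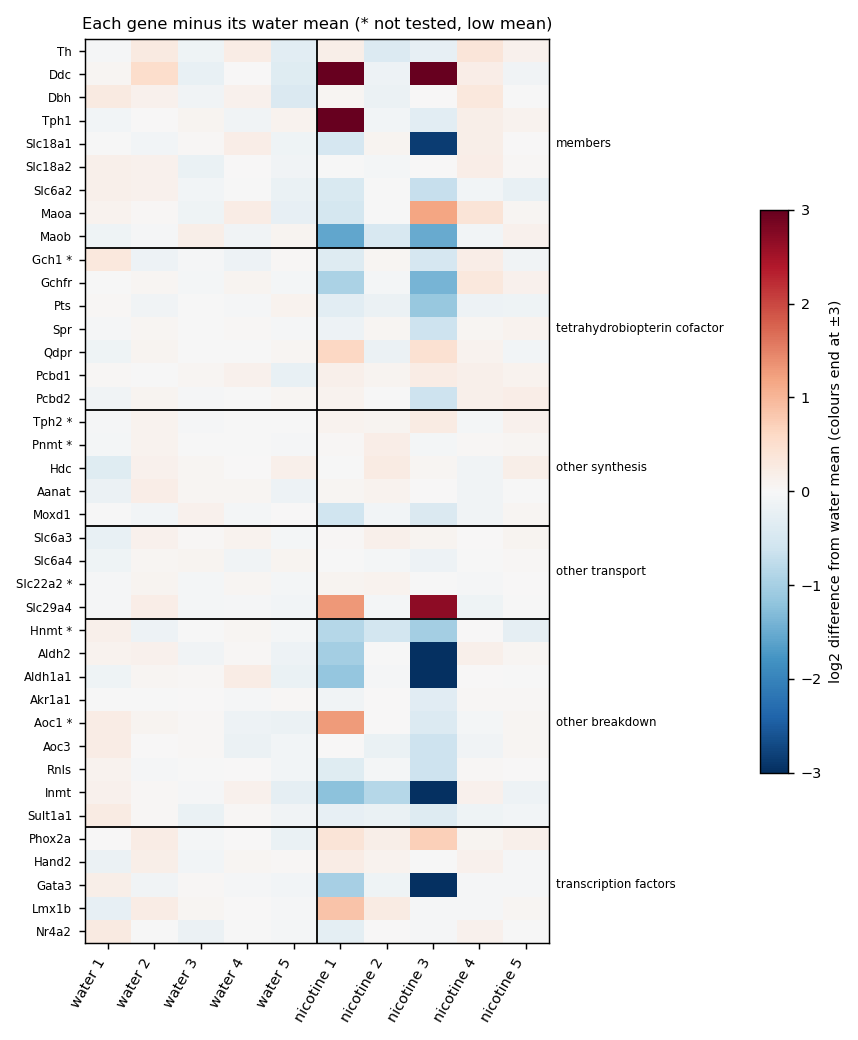
Log2 expression minus the gene's water mean (colour; scale ends at ±3) for the 9 monoamine genes and 30 further pathway genes (rows) in the 10 mice (columns); an asterisk marks genes with too low a mean to be tested. Departures are concentrated in the columns of nicotine 1 and 3, with Ddc and Slc29a4 high and Aldh2, Aldh1a1, Inmt and Gata3 low.

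Markers of other monoamine-holding cells were read beside Ddc and Tph1. The mast cell protease gene Cpa3 was at 5.79 in nicotine 1 and 5.63 in nicotine 3, against 6.68 to 7.73 in the other 8 mice, and the histamine-forming enzyme gene Hdc was at 6.93 and 7.00, within 6.59 to 7.18. The mast cell list of 9 genes averaged 6.32 in nicotine 1 and 6.38 in nicotine 3, inside the 6.17 to 6.46 of the other mice. That mean includes Kit, which other cells also express, at 10.8 and 11.4 against 7.95 to 8.39, so it hides lower values. The protease gene Mcpt4 was at 6.07 and 6.17, against 6.51 to 7.19 in the other 8 mice. Cma1 was below those 8 mice in nicotine 1 only and Tpsb2 in nicotine 3 only. Tpsab1, Mcpt2, Ms4a2 and Fcer1a lay inside their range in both. The adrenal list of 6 genes had a mean of 6.10 for nicotine 3 and 6.06 for nicotine 1, with the other 8 mice at 5.88 to 6.09. In it, Pnmt, which marks adrenaline-forming cells of the medulla, ranged from 6.29 to 6.56 over the 10 mice, too low a mean to be tested, and Star, a cholesterol transport gene of steroid-forming cells, was at 7.10 and 7.45 against 6.78 to 7.01. The platelet list of 4 named genes averaged 6.67 and 6.57 in nicotine 1 and 3, against 6.67 to 7.10. The part of these cell types in the Ddc and Tph1 values was not tested.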

How the data were processed

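The authors deposited 1 table of log2 values, 35556 probe sets on 10 arrays; the scale was read as log2 from the range of the values, and the sources used here do not give the background correction or normalization. Per the labels' protocols, RNA was extracted with Trizol, amplified with a whole-transcript kit and labelled with biotin. Genes came from the 21789 probe sets with 1 symbol in the platform annotation, which can be old; the probe set with the highest mean was kept, giving 19938 genes, and the lowest 25% by mean were not tested. Nicotine was compared with water by limma 3.58.1 in R 4.3.3 (lmFit, eBayes, two-sided, Benjamini-Hochberg over 14953 genes, threshold 0.05) and by an exact permutation test with 252 arrangements, whose smallest p is 0.00794. The fit was tested on simulated data. With 5 arrays per group, their number limits the precision, and p-values set the difference in group means against the spread between these mice. The named genes are the 9 monoamine genes, the 1 or 2 tested genes of each pathway list with the smallest p (1 for lists under 5 tested genes) and the 3 nearest in pattern to each monoamine gene spanning over 1 log2 unit. Other genes named (Pbsn, Krt8, Krt18, Pcsk1, Cplx2, Sez6, Npy, Cpa3, Mcpt4, Cma1, Tpsb2, Tpsab1, Mcpt2, Ms4a2, Fcer1a, Hdc, Kit, Pnmt, Star, Slc6a3, Slc6a4, Tph2, Aldh2, Aldh1a1) fall outside this rule and were chosen after their values were seen. Members, lists and alternatives were chosen with earlier results of these data known. Promoter sequences are RefSeq's, GRCm38.p6; 6 of the 9 genes matched, in 8 windows. Some list genes are not analysed here.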

Additional observations from a re-analysis of the deposited data

Results flagged for a closer look

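In 18 sets of 5 mice (9 genes, 2 groups), 2 values lay further from the rest of their group than Dixon's 95% critical value allows, a limit that chance passes in about 1 set in 20. Tph1 was at 10.9 in nicotine 1, a gap of 0.889 of the group's range to the next mouse. Slc18a1 was at 6.06 in nicotine 3, a gap of 0.781 of the range. The Ddc values of the nicotine group did not pass, because 2 of its 5 mice were high.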

How the results depend on the processing

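The count of 0 genes past the threshold became 1096 with array weights, which were lowest for nicotine 1 and 3, and 0 of the 9 monoamine genes were among them. Every other setting gave 0 genes and 0 monoamine genes, leave-one-out fits included (0 to 0). Of 22 alternatives, 7 leave the 9 differences as they are by construction (they act on the test or on which genes enter, and each gene has 1 probe set). In the other 15, 118 of 135 differences kept their direction and their side of the threshold and 17 turned sign. Without nicotine 1 and 3 these were Ddc (-0.018) and Slc18a1 (0.091). With array weights Slc18a1 turned (0.017), and with the seminal vesicle covariate Dbh (-0.039) and Slc18a2 (-0.0092) did. Leaving out 1 mouse gave -0.085 to 0.11 for Th, -0.069 to 0.11 for Dbh, -0.012 to 0.073 for Slc18a2, -0.026 to 1.09 for Tph1 (negative without nicotine 1), -0.028 to 0.40 for Maoa (negative without nicotine 3), 0.85 to 2.10 for Ddc (lowest without nicotine 1) and -0.81 to -0.055 for Slc18a1 (nearest 0 without nicotine 3). Array weights gave 0.071 for Ddc, 0.12 for Tph1, 0.11 for Maoa, -0.12 for Maob and -0.12 for Slc6a2; the seminal vesicle covariate gave 0.98 for Ddc, 0.13 for Maoa, -0.44 for Maob and -0.32 for Slc18a1. The cause was not tested. Maob (-0.91 to -0.12) and Slc6a2 (-0.36 to -0.10) were negative in every setting. Each reached an unadjusted limma p under 0.05 in some leave-one-out fits, as many other genes did. The lowest were 0.0149 for Maob without nicotine 5 and 0.0260 for Slc6a2 without nicotine 2. In these fits 2033 and 1839 of 14953 tested genes were under 0.05. The lowest limma adjusted p of the 9 genes was 0.300. With the lowest 50% of genes left out, 2 monoamine genes were tested. The mouse number as a replicate block gave 0 genes; same-numbered mice correlated at -0.129 to 0.164 in their deviations from group means, so the numbers were not taken as pairs. The lack of detection calls limits what low values show.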
